A study of Drosophila melanogaster with 3 samples.

Results

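The Cpr genes of Drosophila melanogaster, protein-coding genes whose symbol is Cpr followed by a number, were examined for peaks of a GFP-tagged abd-A protein. The annotation held 70 such genes among the protein-coding genes of the 6 main chromosome arms, 13945 in all. An anti-GFP antibody was used for the ChIP-seq, on 1 group of 3 biological replicates, with no second condition. The chromatin came from whole embryos of both sexes, 4 to 24 hours old by the source name, of a line stably expressing abd-A with GFP at its C-terminus. A separate age label holds a number of hours that no embryo reaches and was not used. For all 3 samples the source name gives the strain as abd-A, with an insertion targeting D. melanogaster abd-A. The labels do not name the promoter that drives the fusion. A peak from whole embryos does not say which cells it came from, and no control library was analysed here. A gene was called bound where a peak summit lay in its body or within 2 kb on either side. The tagged gene itself held 34, 29 and 32 summits in replicates 1, 2 and 3, the best of them at 26.0, 23.6 and 23.7 times the list median of the authors' signal value.

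Cpr genes encode secreted cuticle proteins with the Rebers-Riddiford domain, which binds chitin, the polysaccharide fibre of the insect exoskeleton. Epidermal cells and tracheal cells secrete these proteins as each cuticle is laid down, and the first cuticle is made in the late embryo. Many of the genes arose by tandem duplication and sit side by side in the genome. abd-A is a Hox gene whose homeodomain protein gives abdominal segments their identity, and the larval cuticle carries segment patterns such as denticle belts.

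The sequences under 6 of the 8 strongest summits at Cpr genes are shown because they are the DNA on which the rest of the account turns. Each covers a summit and 50 bases on either side in genome release 6 (dm6 coordinates, RefSeq FASTA). The summits are from the IDR list, the peaks that passed the authors' cutoff on the irreproducible discovery rate. They are written 5′ to 3′ on the strand of the nearest Cpr gene, and ranks count from the strongest peak. Capitals mark the words TAATNA, a homeodomain core, and TGATNNAT, a form of the joint site of Hox proteins and their partner Exd, on either strand.
Cpr35B, summit of rank 28 (chr2L:14422342-14422442, - strand): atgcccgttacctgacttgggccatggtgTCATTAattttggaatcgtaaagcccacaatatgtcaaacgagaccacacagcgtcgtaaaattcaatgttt
Cpr35B, summit of rank 331 (chr2L:14422547-14422647, - strand): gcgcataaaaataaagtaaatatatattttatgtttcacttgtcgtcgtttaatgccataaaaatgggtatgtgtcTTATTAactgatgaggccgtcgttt
Cpr67Fb, summit of rank 822 (chr3L:10893243-10893343, + strand): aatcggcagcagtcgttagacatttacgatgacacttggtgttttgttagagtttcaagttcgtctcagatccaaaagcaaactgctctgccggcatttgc
Cpr65Ay, summit of rank 971 (chr3L:6157853-6157953, - strand): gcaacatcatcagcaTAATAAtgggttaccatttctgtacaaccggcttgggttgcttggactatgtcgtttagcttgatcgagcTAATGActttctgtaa
Cpr78Cc, summit of rank 1135 (chr3L:21299346-21299446, + strand): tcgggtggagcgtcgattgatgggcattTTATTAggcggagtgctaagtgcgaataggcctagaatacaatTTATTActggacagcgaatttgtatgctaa
Cpr65Aw, summit of rank 1534 (chr3L:6141767-6141867, - strand): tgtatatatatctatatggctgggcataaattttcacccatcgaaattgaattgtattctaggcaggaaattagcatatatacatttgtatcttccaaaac

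Of these 6 windows, 4 held TAATNA and none held TGATNNAT. Over all 24 IDR summits in Cpr windows, 12 held TAATNA, against 24.1% of all IDR summits. TGATNNAT was held by 4 (16.7%), against 4.35% of all IDR summits. TTTATGG was held by 5 (20.8%), against 5.70%, and CACACACA by 2 (8.33%), against 6.57%. TAATTA, which is contained in TAATNA, was held by 3 (12.5%), against 5.15%. TGATTTAT and TGATTAAT, both contained in TGATNNAT, were held by 1 summit each (4.17%), against 1.12% and 0.344%. TATAAAA was held by 3 (12.5%), against 4.74%. GAGAGAG, the word of the GAGA factor, was in none of the 24 windows and in 4.27% of all. The Cpr windows were also richer in A and T, with 38.0% G and C against 44.9% over all IDR summits. The part of this base composition in the word shares was not tested. The 57 summits of the pooled list in Cpr windows include all 24 IDR summits, so their word shares are not separate evidence. Of the 57, TAATNA was held by 21, TGATNNAT by 10, TTTATGG by 6 and TAATTA by 4, IDR summits included. Among these 57 the TAATNA share was 36.8%, against 24.6% of all 30000 pooled summits. The TGATNNAT share was 17.5%, against 4.79%. TTTATGG stood at 10.5%, against 5.14%, TAATTA at 7.02%, against 5.55%, and TATAAAA at 8.77%, against 3.96%. CACACACA was lower in the Cpr windows, at 3.51% against 5.79%, and GAGAGAG was in none, against 2.91%. TGATTTAT and TGATTAAT were each at 3.51%, against 1.05% and 0.487%.

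The number of bound Cpr genes was close to that of coding genes at large. In the IDR list 18 of 70 Cpr genes (25.7%) were bound, against 26.5% of all protein-coding genes. In the pooled list, called on the 3 replicates together, 25 (35.7%) were bound, against 37.8%. In the full replicate lists of 30000 peaks each, 25, 26 and 26 Cpr genes were bound in replicates 1, 2 and 3, against 40.5%, 38.4% and 39.3% of coding genes. The mean was 36.7% ± 0.825 of Cpr genes and 39.4% ± 1.09 of all coding genes (SD, n = 3 replicates each). Among the 8143 strongest peaks of each replicate, 18, 17 and 19 Cpr genes were bound, against 28.0%, 26.2% and 26.2%. These Cpr shares lie near the background and are no result about the family.

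Cpr genes are short, with a median length of 1094 bp against 2166 bp for all coding genes. Coding genes between 605 and 4739 bp, the 10th and 90th percentiles of Cpr length, were bound in 17.4% of cases in the IDR list and 28.5% in the pooled list. Against these all Cpr genes together, at 25.7% and 35.7%, stood higher. The sets are unlike in length, since the Cpr shares also count genes outside that range. Among these, Cpr47Eg, Cpr65Aw, Cpr65Ay, Cpr67Fb, Cpr78Cc and Cpr62Ba held an IDR summit and others did not. Cpr genes inside the range were not counted apart, here or wherever this range is used below. No test was made of the difference in shares, since neighbouring Cpr genes share summits and are not independent. The Cpr windows also held less coding sequence, a median of 20.9% of the window against 43.5% in that length range, and more sequence over 300 bp from any coding exon, 2625 against 1569 bp. Within the family, Cpr genes with an IDR summit had medians of 18.2% coding and 2270 bp of such distant sequence. Those without had 21.5% and 2654 bp. The part of this spacing in the shares was not tested.

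Counted by length instead of by gene, Cpr windows held fewer summits than the arms at large in the full lists and slightly more in the IDR list. The windows covered 370 kb and held 58, 60 and 60 summits in replicates 1, 2 and 3, or 160 ± 2.89 per Mb (SD, n = 3). The windows of coding genes in the Cpr length range held 148 ± 3.79 per Mb, and those of all coding genes 231 ± 1.0 per Mb. The main arms as a whole held 224 per Mb. In the IDR list the Cpr windows held 64.8 summits per Mb, close to the 65.1 in windows of all coding genes. The length range held 49.3 and the arms 60.8 per Mb.

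**Figure D1:**
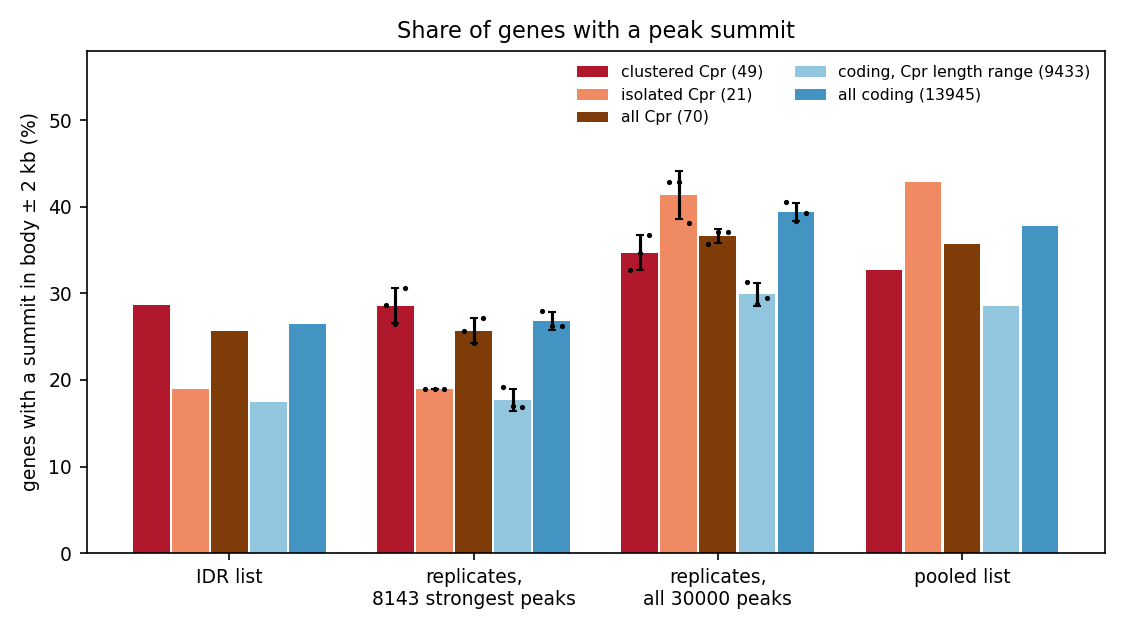
Percent of genes holding a summit within 2 kb of the body, for clustered, isolated and all Cpr genes and for 2 sets of coding genes, in each kind of peak list. Bars over replicates are means with SD and points for replicates 1, 2 and 3; the clustered genes stand above the isolated genes in the IDR list (28.6% against 19.0%) and below them in the pooled list (32.7% against 42.9%).

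Clustered and isolated Cpr genes were then compared. A Cpr gene was called clustered where another Cpr gene lay within 10 kb, which held for 49 genes in 13 clusters, and isolated otherwise, which held for 21 genes. In the IDR list 14 clustered genes (28.6%) and 4 isolated genes (19.0%) were bound, a difference of 9.52 percentage points. Among the strongest peaks of replicates 1, 2 and 3, 14, 13 and 15 clustered genes (28.6% ± 2.04, SD, n = 3) and 4 isolated genes in each (19.0%) were bound. In the pooled list 16 clustered genes (32.7%) and 9 isolated genes (42.9%) were bound, a difference of -10.2 points. In the full replicate lists the shares were 34.7% ± 2.04 of clustered and 41.3% ± 2.75 of isolated genes (SD, n = 3). The difference in replicates 1, 2 and 3 was -10.2, -8.16 and -1.36 points, a mean of -6.58 ± 4.63 (SD, n = 3). The sign of the difference in genes bound therefore depended on whether weak peaks were counted. Counted per length in the same full lists, clustered windows held 166, 166 and 170 summits per Mb in replicates 1, 2 and 3, and isolated windows held 140, 155 and 148. The means were 167 ± 2.31 per Mb in clustered and 148 ± 7.51 per Mb in isolated windows (SD, n = 3), the opposite direction to the share of genes. The pooled list gave 153 per Mb in clustered and 155 per Mb in isolated windows, and the IDR list 76.7 and 44.3 per Mb. An exact two-sided sign-flip test over 3 replicates cannot fall below 0.25, so none was made. The mean was -1.36 points when a summit counted only where its nearest coding start was that of a Cpr gene. It turned to 3.40 points when the start that Cpr57A shares with Obp57d was given to Obp57d, so the sign under that count rests on 1 gene.

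What the IDR list left out among isolated genes was 5 of their 9 pooled calls, at Cpr11B, Cpr57A, Cpr67B, Cpr73D and Cpr100A. Their best pooled summits stood at 1.11, 1.03, 1.31, 1.06 and 0.494 times the pooled list median. All but that of Cpr100A were found in each of the 3 replicates, whereas Cpr100A had 1, 2 and 0 summits in replicates 1, 2 and 3. Several of these summits lay by neighbours. At Cpr73D all 5 pooled summits were nearest to starts of Ogdh, a gene of the citric acid cycle that overlaps Cpr73D on the other strand. Of the 31-base words of Cpr73D, 48.9% also occur elsewhere on the arms. The Cpr57A summit lay 170 bp before the start that the annotation gives to both Cpr57A and Obp57d, an odorant-binding protein gene. At Cpr67B, 2 of the 3 summits were nearest to eIF4E1, a translation initiation factor gene, and the third lay 56 bp past the start of Cpr67B itself.

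Summits were spread unevenly over the clusters. No runs of other coding genes were set beside them, so this is not read as a trait of the family. IDR summits were present in 7 of 13 clusters. The clusters Cpr65A, Cpr67F and Cpr78C, singled out after their values were seen, held 13 of the 18 IDR summits of clustered genes, with 10 of their 13 genes bound. Their windows covered 26.9, 8.7 and 13.3 kb of the 235 kb in windows of clustered genes. In the full replicate lists these 3 clusters held 29, 27 and 25 summits, against 10, 12 and 15 in the other 10 clusters. At the other end, 6 clusters with 19 genes had no pooled summit. They were Cpr49Ae to Cpr49Ah, the pair Cpr50Ca and Cpr50Cb, Cpr64Aa to Cpr64Ad, Cpr72Ea to Cpr72Ec, Cpr76Ba to Cpr76Bd and the pair Cpr97Ea and Cpr97Eb. Among them the replicate lists added 1 summit at Cpr76Ba in replicates 2 and 3 and 1 at Cpr50Cb in replicate 3. In all, 43 of the 70 Cpr genes had no summit in any of the 5 lists. No share of all coding genes was set beside this count, so it is no result about the family.

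**Figure D2:**
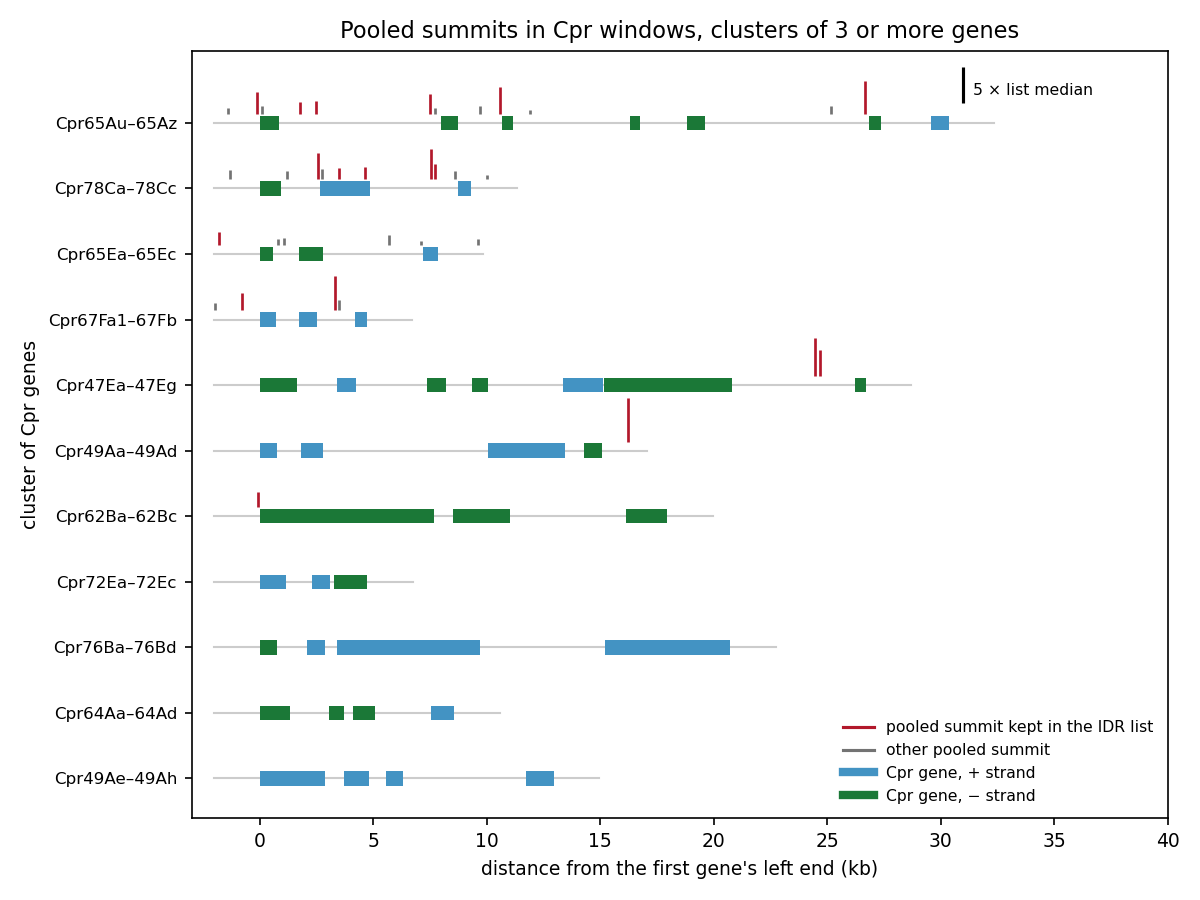
Maps of the 11 clusters of at least 3 Cpr genes, with distance from the left end of the first gene in kb; boxes are Cpr genes by strand, vertical lines are pooled summits in Cpr windows, with height proportional to signal value over the list median, red where the summit is in the IDR list. The Cpr65A, Cpr78C and Cpr67F clusters hold 12, 10 and 4 pooled summits, and the lowest 4 rows hold none.

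The shares also varied by arm, with no test made. On 3L 12 of 35 Cpr genes (34.3%) had an IDR summit, where 21.1% of coding genes of the length range did. On 2R 3 of 21 Cpr genes (14.3%) had one, where 17.4% of such coding genes did. On 2L 2 of 5 Cpr genes had one, where 16.9% of such coding genes did. On X 1 of 4 had one, where 15.5% did, and on 3R 0 of 5, where 16.1% did. With 4 or 5 Cpr genes on these arms, nothing is read from their counts. By clusters, 5 of 8 on 3L and 2 of 4 on 2R held an IDR summit.

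The Cpr65A cluster was bound at 4 of its 7 genes. Cpr65Au, Cpr65Av, Cpr65Aw and Cpr65Ay held 3, 2, 1 and 1 IDR summits, and the cluster held 12 pooled summits and 12 in each of the 3 replicates. The strongest lay downstream of Cpr65Ay (3L, summit at 6157903), 727 bp from its start and 526 bp before the start of CG13297. Its signal value was 3.61, 5.67 and 3.76 times the list median in replicates 1, 2 and 3, a mean of 4.35 ± 1.15 (SD, n = 3). The next, at 6141817 between Cpr65Av and Cpr65Aw, stood at 3.35, 3.63 and 3.46 times. It lay 596 bp from the Cpr65Aw start and counted for both genes.

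The genes of the Lcp65A group, larval cuticle proteins of the same domain family, are interleaved with the Cpr65A genes. Of the 4 summits nearest to Cpr65Au or Cpr65Av in the IDR list, each had its nearest coding start in an Lcp65A gene: Lcp65Ag3 for 1, Lcp65Ag2 for 2 and Lcp65Ae for 1. The summit at 6131132 lay 143 bp from the start of Lcp65Ag3, at 3.53, 2.60 and 2.31 times the list median. The summit nearest to Lcp65Ae, in the Cpr65Av window, stood at 2.21, 3.10 and 2.64 times. No summit of any list fell at Cpr65Az, Cpr65Ax1 or Cpr65Ax2. Cpr65Ax1 and Cpr65Ax2 are near-identical copies, and 100% of the 31-base words in each also occur elsewhere on the arms. The lack of a peak at these copies is therefore uncertain.

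The Cpr78C cluster was bound at all 3 genes, with 1 IDR summit at Cpr78Ca, 3 at Cpr78Cb and 2 at Cpr78Cc, 5 distinct summits in all. It held 13, 11 and 9 summits in replicates 1, 2 and 3, and its pooled density, 751 per Mb, was the highest of the 13 clusters. Cpr78Cb had 2 IDR summits and 3 pooled summits within 500 bp of its own starts. The stronger of them (3L, 21294409), 83 bp upstream of the first start, had 4.18, 2.84 and 3.34 times the list median in replicates 1, 2 and 3. Another lay 51 bp before an internal start, at 1.84, 1.33 and 1.28 times. The strongest in the cluster (21299396) lay 1184 bp before Cpr78Cc, at 3.46, 4.71 and 3.61 times. It was 652 bp past the start of CG43702 and 1593 bp before that of Edg78E, another cuticle protein gene of the family, which holds 4 IDR summits in its own window.

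The Cpr67F cluster had 2 IDR summits, the first counting for Cpr67Fa1 alone and the second for both Cpr67Fa2 and Cpr67Fb. One lay 785 bp before Cpr67Fa1, at 2.28, 2.10 and 2.63 times the list median. The other (10893293) lay 880 bp before Cpr67Fb and 777 bp from the body of Cpr67Fa2. It stood at 5.01 and 4.91 times the list median in replicates 1 and 3. Replicate 2 had no summit within 100 bp, and its summit matched to position 10893492 stood at 4.10 times. Cpr67Fa1 and Cpr67Fa2 share sequence, with 13.2% and 11.6% of 31-base words found elsewhere, but both summits lie outside the gene bodies. In the Cpr65E cluster 1 IDR summit, 1789 bp from the body of Cpr65Ea, was among 6 pooled ones. It stood at 1.87, 1.33 and 2.10 times the list median in replicates 1, 2 and 3. The 3 replicates each held 7 summits there, and Cpr65Eb and Cpr65Ec were bound in each of them without an IDR summit.

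The single strongest site of the family was isolated. Cpr35B on 2L held 3, 3 and 3 summits in replicates 1, 2 and 3, and the first (14422392) ranked 28 of 8143 in the IDR list and 48, 21 and 30 in the replicates. It stood at 11.9, 15.5 and 13.6 times the list median, a mean of 13.7 ± 1.79 (SD, n = 3), while no other IDR summit at a Cpr gene had a mean above 6.18. That second value belonged to the summit 205 bp away in the same interval, at 4.86, 7.46 and 6.20 times. Both lay between genes, 2797 and 2592 bp downstream of the Cpr35B start and 1923 and 1718 bp past its end, near the edge of the 2 kb window. On the other side the next coding gene was Pburs, whose start was 5061 bp from the first summit. Pburs encodes a subunit of bursicon, the hormone that sets off cuticle tanning after moulting. Which gene such a site acts on cannot be read from distance.

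**Figure D3:**
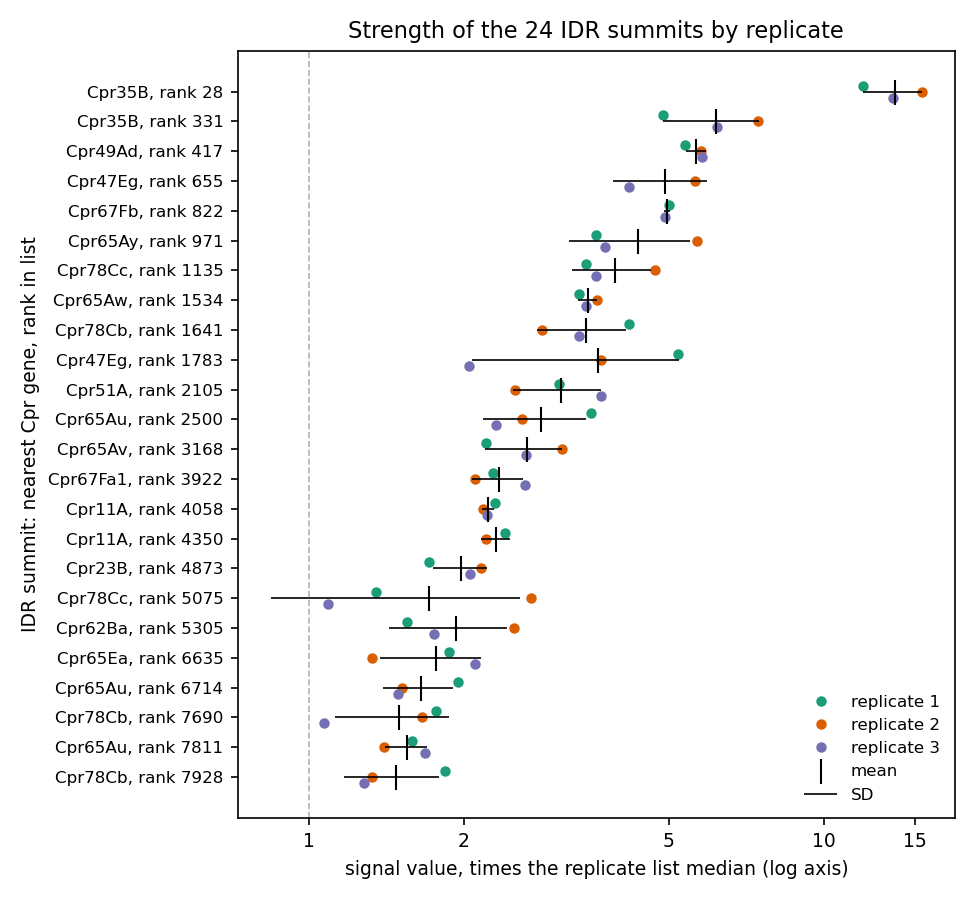
Signal value of the 24 IDR summits in Cpr windows, as multiples of each replicate list's median on a log axis, labelled by the nearest Cpr gene and the rank in the IDR list. Points are replicates 1, 2 and 3 where a summit lay within 100 bp, with the mean and SD; the Cpr35B summit of rank 28 stands at 11.9 to 15.5 and all others under 8.

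The other Cpr genes of the IDR list had 1 or 2 summits there. Cpr11A on X had 2 IDR summits, 469 and 685 bp before its start, the first at 2.30, 2.18 and 2.22 times the list median in replicates 1, 2 and 3. The second was not found within 100 bp in replicate 3. Cpr23B had 1 summit at 1.71, 2.16 and 2.06 times, 442 bp before its start and 136 bp before that of the neighbour CG3119. Cpr62Ba had 1, 63 bp past its 3' end and 4876 bp from the nearer of its 2 transcript starts, at 1.55, 2.50 and 1.75 times. Replicate 1 had no summit at Cpr62Ba among its strongest peaks.

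On 2R the 3 bound genes had their IDR summits nearest to the starts of other genes. The clusters Cpr47Ea to Cpr47Eg and Cpr49Aa to Cpr49Ad had 1 bound gene each, of 7 and of 4. Cpr49Ad had 1 summit at 5.37, 5.76 and 5.81 times the list median, 1153 bp before its own start and 631 bp before that of Or49a, an odorant receptor gene. Cpr47Eg had 2, the stronger 939 bp before the start of TpnC47D, a muscle troponin C gene. It stood at 5.63 and 4.19 times in replicates 2 and 3, while replicate 1 had its only summit of that window nearer the second position, at 5.20 times. Cpr51A had 1 at 3.06, 2.51 and 3.70 times, inside the gene and 117 bp past the start of CG30197, which overlaps it.

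**Figure D4:**
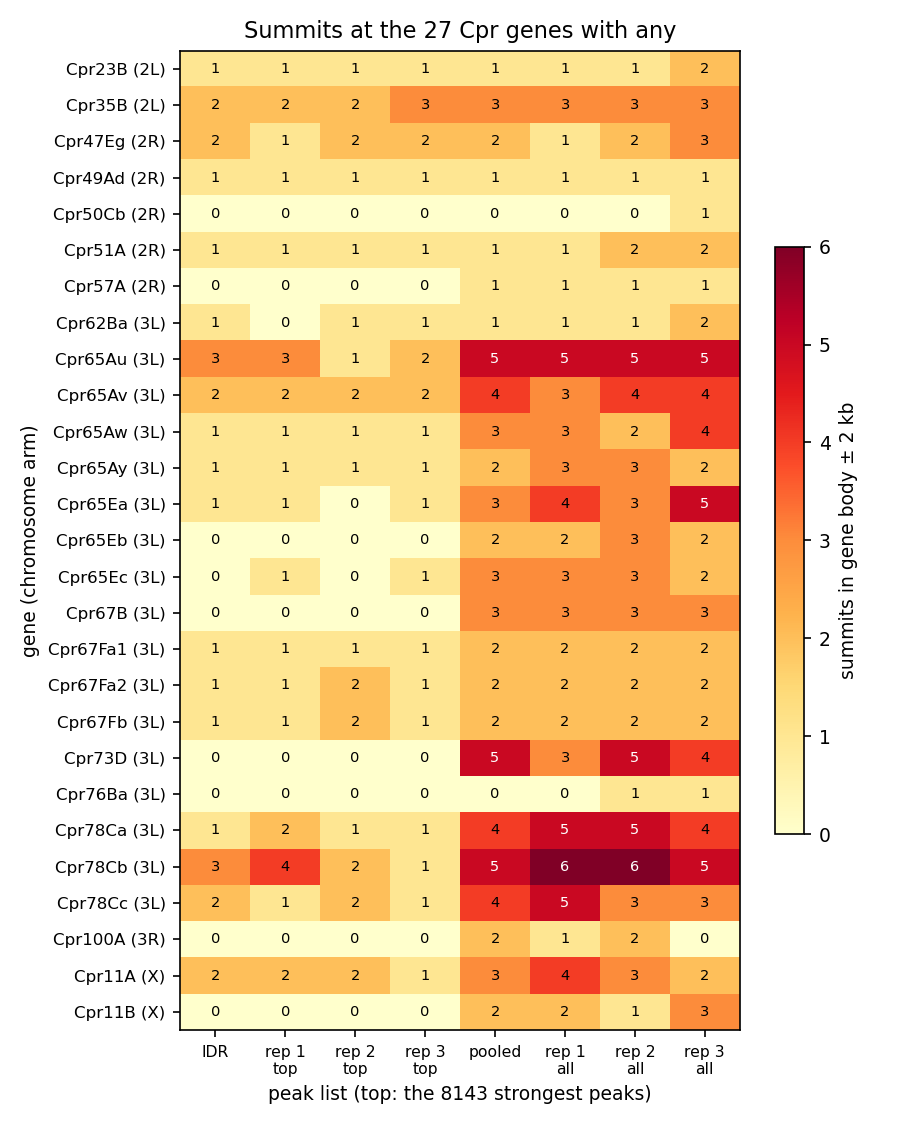
Number of summits in the gene body or within 2 kb for the 27 Cpr genes with any, by gene (rows, with chromosome arm) and peak list (columns). Cpr65Au holds 5 summits in each full replicate list and Cpr78Cb 5 or 6, while the columns of strongest peaks hold at most 4 in any cell.

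The peaks at Cpr genes repeated across replicates and were mostly away from the genes' own starts. All 18 genes of the IDR list had a summit in each full replicate list, and 16 of them also among the 8143 strongest peaks of each. The IDR list was made from these replicates, which were called against the same control file, so this is not independent evidence. Of the 24 IDR summits, 21 had a summit within 100 bp in all 3 replicates. By place, 15 (62.5%) lay between genes, 7 within 500 bp of a coding start (3 of Cpr genes, 4 of other genes) and 2 in untranslated regions. None lay inside coding sequence, and 1 was within 50 bp of it. No such shares over all 8143 IDR summits were set beside these. The places and the matches in replicates are therefore not read as traits of Cpr peaks. Of the 24 summits, 12 had a Cpr gene as the nearest coding start, and 8 of the 18 bound Cpr genes were that nearest gene for some summit. IDR summits lay within 500 bp of an own start at 3 Cpr genes (4.29%), namely Cpr11A, Cpr23B and Cpr78Cb, against 6.57% of coding genes in the length range and 12.8% of all. In the pooled list 10 Cpr genes (14.3%) had one, against 13.0% and 22.2%. The median strength of the 24 summits was 1.21 times that of the IDR list, ranging over 0.682 to 6.26 times, and 6 (25.0%) were among its 1000 strongest, against 12.3% of the list.

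The 2 kb edge of the window mattered for a few genes. Just inside it were Cpr35B and Cpr65Ea, with the nearest IDR summit 1718 and 1789 bp from the gene body. Just outside were Cpr65Eb and Cpr65Ec, at 2084 and 2333 bp, then Cpr49Ac at 2795 bp. With no flank 2 Cpr genes held an IDR summit, and with 500 bp 9 did. No shares of other coding genes were set beside these counts, so the fall is not read as a trait of Cpr genes.

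A pair of stretches before gene starts is shown for contrast, 250 bases each of the same genome. The first ends at the start of Cpr78Cb, whose peak it holds. The second ends at the start of Cpr67Fb, whose peak lies farther upstream. Capitals mark TAATNA, TGATNNAT and TATAAAA, a form of the TATA box.
Cpr78Cb, bases before the start (chr3L:21294242-21294491, + strand): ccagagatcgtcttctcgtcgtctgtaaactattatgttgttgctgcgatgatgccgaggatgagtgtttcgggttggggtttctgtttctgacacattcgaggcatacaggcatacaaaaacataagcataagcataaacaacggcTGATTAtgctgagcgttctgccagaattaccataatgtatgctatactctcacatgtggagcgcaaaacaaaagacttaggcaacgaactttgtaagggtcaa
Cpr67Fb, bases before the start (chr3L:10893923-10894172, + strand): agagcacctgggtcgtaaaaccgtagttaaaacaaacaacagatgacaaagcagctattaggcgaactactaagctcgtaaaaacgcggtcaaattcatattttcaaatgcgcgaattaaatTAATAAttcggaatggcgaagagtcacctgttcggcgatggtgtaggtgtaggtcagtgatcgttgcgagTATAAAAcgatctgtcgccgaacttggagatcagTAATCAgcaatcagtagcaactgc

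TATAAAA was found before Cpr67Fb and not before Cpr78Cb. In 300 bp promoters, 250 bp before to 50 bp after the gene start, TATAAAA was held by 33 of 70 Cpr genes (47.1%), against 24.2% of all coding genes. TAATNA was held by 33 (47.1%) too, against 62.3%, and TGATNNAT by 6 (8.57%), against 18.7%. TAATTA was held by 14.3%, against 20.4%, TGATTTAT by 2.86%, against 3.39%, and TTTATGG by 7.14%, against 6.68%. CACACACA was held by 8.57%, against 4.02%, GAGAGAG by 1.43%, against 5.87%, and TGATTAAT by 0, against 2.00%. G and C made up 45.1% of Cpr promoters and 39.1% of all coding promoters, and the part of this difference in the shares was not tested. Cpr genes with and without TATAAAA held an IDR summit in 9 of 33 and 9 of 37 cases.

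Other genes of cuticle formation gave a wider range of shares. Cuticle genes of the same domain family without a Cpr name were bound in 7 of 27 cases (25.9%) in the IDR list, led by Edg78E with 4 summits, Lcp65Ag2 with 3 and Lcp65Ag1 with 2. These 7 genes held 9 distinct IDR summits, and all 9 also lay in a Cpr window. Tweedle genes, a separate family of cuticle proteins that set body shape, were bound in 13 of 25 cases (52.0%), with 2 summits each at TwdlF, TwdlG, TwdlH, TwdlN and TwdlR. These 13 genes shared 8 distinct IDR summits. In the full replicate lists 72.0% of Tweedle genes were bound in each of the 3 replicates, against 39.4% ± 1.09 of all coding genes and 29.8% ± 1.29 of those in the Cpr length range (SD, n = 3). The median length of Tweedle genes was 1088 bp. Of 34 genes of chitin synthesis and remodelling, 18 (52.9%) held an IDR summit, led by the chitinase gene Cht7 with 6 summits, exp with 4 and mmy, which makes the sugar donor for chitin, with 4. Their median length was 3242 bp.

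The remaining lists were small. Genes of the peritrophin-like chitin-binding proteins were bound in 2 of 9 cases (22.2%), obst-A and obst-E with 1 summit each, and in 40.7% ± 6.42 in the full replicate lists (SD, n = 3). Tanning and pigment genes were bound in 1 of 8 cases (12.5%), at Pu with 2 summits, in the IDR list, and in 45.8% ± 7.22 in the full replicate lists (SD, n = 3). Of 12 regulators of cuticle genes, 10 (83.3%) held an IDR summit, among them the ecdysone-response genes Eip75B with 26 summits, EcR with 12 and Hr4 with 12. Their median length was 55678 bp, against 1094 bp for Cpr genes. The IDR shares stand beside 26.5% of all coding genes, and those of the full lists beside 39.4% ± 1.09. The peritrophin-like and tanning shares stood below the background in the IDR list, while their means over the full lists stood above it. Single replicates differed. The peritrophin-like share was 33.3% in replicate 1, against 40.5% of all coding genes, and the tanning share was 37.5% in replicate 2, against 38.4%. In the other replicates both stood above the background. Median lengths were 1293 and 5886 bp. With 9 and 8 genes, nothing is read from these differences. No difference between gene lists was tested.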

How the data were processed

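The authors deposited narrowPeak lists on dm6, 1 for each of 3 replicates, 1 for the replicates pooled and 1 of IDR-thresholded peaks derived from the other lists. Per the deposited README records, each replicate list derives from its own alignments and a control file common to the 3. Aligner, peak caller and thresholds: not given in the sources used here. The deposited signal value is the authors' score for a peak, with no stated scale, and was compared only within a list or relative to its median. Read depth is unknown from the lists, and each full list holds 30000 peaks, so the 8143 strongest peaks per replicate were also compared.

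Genes came from Ensembl release 115 (FlyBase 6.54, genome release 6, the coordinates of dm6). No peak passed the end of an arm. A summit is column 2 plus column 10, written 1-based, and repeated intervals with another summit each counted. Peaks of replicates were matched to a summit by the nearest within 100 bp. A summit counts for each gene whose window holds it, and a start shared with another gene counts as the Cpr gene's. Members and lists were chosen with earlier results of these data known. Genes named were each Cpr gene with an IDR summit, the 10 with most pooled summits (with ties), the most-peaked gene of each cluster of 3 or more, and 3 genes (with ties) of each other list. No chance test was made. The planned protein comparison was not run, since no protein table was used here. Counting was tested on simulated data. Python 3.11.15, numpy 2.4.6 and pandas 2.3.3 were used.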

Additional observations from a re-analysis of the deposited data

How the results depend on the processing

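The number of bound Cpr genes depended most on the window. Against 18 in the IDR list, 25 in the pooled list and means of 18.0 (strongest peaks) and 25.7 (all peaks) over replicates, the gene body alone gave 2, 5, 1.67 and 5.33. A flank of 500 bp gave 9, 16, 8.33 and 17.0, and 500 bp around starts gave 3, 10, 3.00 and 11. Of the counts under these alternative settings, here and below, only those for 500 bp around starts have background shares. These cover the IDR and pooled lists. Changes under the other settings are therefore not read as traits of Cpr genes. Counting only summits nearest to a Cpr start gave 11 in the IDR list and 11 for strongest peaks. A 5 kb flank and overlap of the interval by 1 bp kept each of the 4 counts within 1.5 times, as did the stronger 50% of a list for the 3 counts it was run on (not the strongest peaks). The clustered minus isolated mean, -6.58 points, was -13.8 around starts, -1.36 in the stronger 50% and -1.36 with summits nearest to a Cpr start. In an alternative chosen after seeing the data, which gave the start shared by Cpr57A and Obp57d to Obp57d, it reversed to 3.40; this setting moves only Cpr57A. That alternative gave 11 genes in the IDR list and 11 for strongest peaks. Other definitions of a cluster gave -6.58 to -4.23. Leaving out a replicate gave means of 17.5 to 18.5 genes for strongest peaks, 25.5 to 26.0 for all peaks and differences of -9.18 to -4.76. No paired analysis was possible because there is 1 group. Read depth being unknown, a missing peak does not show that a gene is unbound.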
